A study of Rattus norvegicus with 53 samples.

Results

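Hbb and Hba-a3 are genes for a β-type and an α-type chain of haemoglobin, and they are the 2 genes described here among the 32576 genes of the expression table. They were chosen by name and position. Hbb (ENSRNOG00000058105) starts at position 168972725 of chromosome 1 and Hba-a3 (ENSRNOG00000045989) at position 15577977 of chromosome 10 of the rat build Rnor_6.0. Both are on the study's list of genes with a cis-eQTL, a nearby variant associated with expression in the eye. Genotypes were not used here. The tissue was the whole eye of HS (Heterogeneous Stock) rats, an outbred population bred from inbred founder strains, with the muscles around the eye removed before RNA extraction. All 51 eyes analysed belong to a single group, each from a different rat, and 2 further eyes, which the study dropped because their RNA matched no genotype, were left out. The rats of the wider project were either breeders or rats tested for behavior with nicotine self-administration. The cohort, sex and age behind each eye are unstated in the labels and methods, so no treatment, sex or age was compared. The 51 labels divide the eyes in 2 ways, called batches below for short. By rat identifier, 12 eyes carry a less common prefix and 39 carry the most common prefix. By label, 11 eyes carry a corrected label and 40 kept their original one. What the prefix stands for is not stated, and nothing in the labels says that either split is a processing batch. Nothing in the labels says whether the eyes were blotted, rinsed or perfused. The values are those of single libraries with no repeat library of any eye, so spread between eyes holds both the rats and the handling.

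Haemoglobin, the oxygen carrier of red blood cells, is assembled from paired α-type and β-type chains. The α-type and β-type genes lie in separate clusters on different chromosomes, and developing red cells make both kinds of chain in near balance. Mature mammalian red cells have no nucleus, but young ones, the reticulocytes, still carry globin mRNA, so a tissue that was not emptied of blood brings some of it into an RNA library. Globin transcripts have also been described at low level in other cell types. In bulk libraries, fewer cells of a type and less RNA per cell cannot be told apart.

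The promoters show how alike the α genes are and which elements they share with Hbb. They are given as a description, since the unnamed genes below could not be paired with Hba-a1 or Hba-a2. The 120 bases before the RefSeq start of 4 globin genes are printed 5′ to 3′ on the strand of the gene, which is the minus strand in all 4 cases, from build GRCr8, another build than that of the expression table. Both strands were searched for CCAAT, the sequence known to bind NF-Y, for CACCC, known to bind KLF1 in β-globin promoters, and for ATAAA, part of the TATA box of globin genes. Capitals mark the matches, and in Hbb 2 CCAAT matches on opposite strands lie end to end.
Hbb: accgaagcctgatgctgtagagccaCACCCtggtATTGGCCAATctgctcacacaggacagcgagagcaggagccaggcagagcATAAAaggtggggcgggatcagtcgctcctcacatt
Hba-a3: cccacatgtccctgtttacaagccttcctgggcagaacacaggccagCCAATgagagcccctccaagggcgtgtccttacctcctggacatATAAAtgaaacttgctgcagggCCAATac
Hba-a2: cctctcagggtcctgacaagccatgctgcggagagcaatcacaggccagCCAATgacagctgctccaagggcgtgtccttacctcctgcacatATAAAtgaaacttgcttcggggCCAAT
Hba-a1: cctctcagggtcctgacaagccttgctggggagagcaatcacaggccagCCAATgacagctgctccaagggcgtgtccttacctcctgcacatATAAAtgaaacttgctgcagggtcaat

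These windows are chr1:167663722-167663841 for Hbb, chr10:15816944-15817063 for Hba-a3, chr10:15829139-15829258 for Hba-a2 and chr10:15842581-15842700 for Hba-a1. In the 120 bases shown, CCAAT occurred in all 4 genes, with the first base of the match on the printed strand nearest to the middle of the window at -81 in Hbb, -73 in Hba-a3 and -71 in both Hba-a2 and Hba-a1, counted back from the start. ATAAA was also present in all 4, at -36 in Hbb, -29 in Hba-a3 and -27 in Hba-a2 and Hba-a1. CACCC was found in Hbb only among the 4, at -95. Over the 33469 rat promoters of the same table, windows of this length held CCAAT in 19.9%, ATAAA in 21.5% and CACCC in 29.5%, so each is a common match and is given as a description. The longest run of bases that Hba-a3 shares with Hba-a2 is 26 long, ctccaagggcgtgtccttacctcctg. With Hba-a1 it shares the same run and another of equal length that covers ATAAA, and none longer. Between Hba-a2 and Hba-a1 the longest shared run was 80 bases, and between Hbb and Hba-a3 it was 7 bases.

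The libraries held between 9109084 and 42146827 counts, with a median of 16193478. A count here is an RSEM expected count, an estimate of the fragments that came from a gene, which need not be whole when reads fit several genes. Counts were scaled to 1000000 per eye, giving CPM (counts per 1000000), and spreads and relations were computed on log2(CPM + 1), a scale that understates changes of low genes. No gene length was used, so levels of different genes below are amounts of sequenced fragments and not of transcripts. The tissue label was checked with photoreceptor and other retinal genes. Guca1b, an activator of guanylate cyclase in photoreceptors, had a median of 570.7 CPM, and all 6 retinal genes tested, Guca1b, Cplx3, Cplx4, Grm2, Crb1 and Impdh1, were above 0 in every eye.

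Hbb was present in every eye and varied widely. It had 3.71 CPM in the lowest eye, a median of 16.8 CPM and 88.1 CPM in the highest eye, a 23.7-fold range, which was 15.1-fold without the highest eye, eye 27. In counts this was 49 in the lowest library, a median of 255 and 1404 in the highest. The distribution had a long upper and a long lower end: 3 eyes exceeded 40 CPM and 7 were under 5 CPM, while 40 of the 51 exceeded 10 CPM. On the log2(CPM + 1) scale Hbb averaged 4.02 ± 0.91 (SD, n = 51). The widest gap between neighbouring eyes with at least 3 eyes on each side was 0.34 on this scale, so the eyes form a continuous range rather than separate groups.

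The spread of Hbb was large for its level. Among the 200 genes nearest to it in mean log2 level the median SD was 0.34, and 97.5% of them had a smaller SD than Hbb. By its median, Hbb stood above 41.8% of the genes that passed a median of 1 CPM, so it is a gene of middling abundance in these eyes. The highest eyes were eye 27 with 88.1 CPM, eye 44 with 56.0 CPM and eye 2 with 42.6 CPM, and the lowest were eye 45 with 3.71 CPM, eye 10 with 4.31 CPM and eye 31 with 4.38 CPM. Eyes 27, 44 and 45 are among the 11 with a corrected label, so both the top and the bottom of the range belong to that batch.

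Hba-a3 was close to the limit of detection. It was at 0 in 19 of the 51 eyes and had between 1 and 34 counts in the other 32, with a median of 7 counts among those 32. Over all eyes the median was 3 counts or 0.16 CPM, and the highest was 2.13 CPM, in eye 27. The next highest were eye 44 with 26 counts (1.62 CPM) and eye 17 with 23 counts (1.42 CPM), and 13 of the 32 eyes with any count had 5 or fewer. A count of 0 allows a level of up to 3 counts, which is between 0.0712 and 0.329 CPM depending on the depth of the library, so a 0 does not show that the transcript was absent. Such limits and the intervals below cover counting error only, and reads without molecular identifiers are not independent molecules.

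On log2(CPM + 1), Hba-a3 averaged 0.36 ± 0.42 (SD, n = 51), and 88% of the 200 genes nearest in level had a smaller SD, the median of which was 0.36. The low level places it under the minimum of a median of 1 CPM used for tests across genes, and it was added by name to the comparisons of batches. Every Hba-a3 value was a whole count within 0.01, while 37 of the 50 Hbb values below 1000 counts were not whole. Part of the Hbb fragments was thus assigned by estimate, as happens where reads fit several genes.

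**Figure D1:**
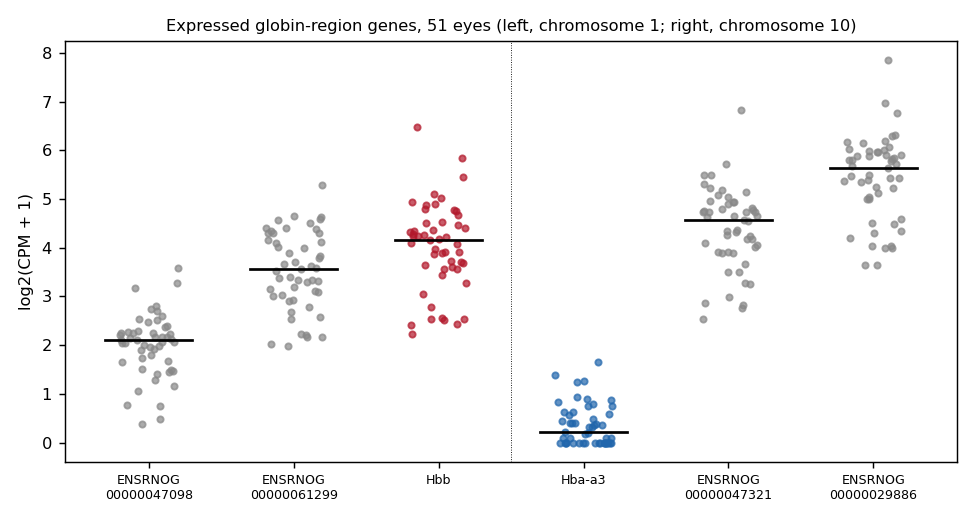
Level in log2(CPM + 1) (vertical axis) of Hbb (red), Hba-a3 (blue) and 4 unnamed genes of their windows (grey), 1 point per eye for 51 eyes, with the median as a black bar. The unnamed genes shown were picked by a low limma p with Hbb. The 6 other expressed genes near Hba-a3 are not drawn. The 3 genes left of the dotted line are on chromosome 1 and the 3 right of it on chromosome 10; Hbb ranges over 23.7-fold in CPM, and 19 eyes sit at 0 for Hba-a3.

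Within 100 kb of Hbb the table has 12 genes, Hbb included, and 9 of them were at 0 in all 51 eyes. The 2 other expressed genes carry no name in the files. ENSRNOG00000061299, which starts 15.3 kb before Hbb in coordinates, had 2.95 CPM in the lowest eye, a median of 10.8 CPM and 38.2 CPM in the highest. ENSRNOG00000047098, 27.3 kb before it, had 0.303, 3.29 and 11.03 CPM. The RefSeq annotation of GRCr8 lists 9 globin symbols in this region, Hbb-bs, Hbb-b1, Hbbl1, Hbb-b2, Hbb, Hbe1l-ps1, Hbg1, Hbe2 and Hbe1, which include genes of embryonic type. Which of these the unnamed genes are cannot be told from the files used here. In each of those 2 genes 47 of the 51 values were not whole, so their split of counts with Hbb is an estimate and is uncertain.

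Within 100 kb of Hba-a3 the table has 13 genes, of which 4 were at 0 in every eye. ENSRNOG00000047321, 12.2 kb from Hba-a3, had 4.78 CPM in the lowest eye, a median of 22.8 CPM and 112 CPM in the highest. ENSRNOG00000029886, 25.7 kb from it, had 11.5, 48.4 and 229 CPM and exceeded ENSRNOG00000047321 in all 51 eyes. They ranged over 23.5-fold and 19.9-fold, and over 10.8-fold each without eye 27. On the log2 scale their SDs were 0.84 and 0.88, and 97% of the genes nearest in level to each had a smaller SD. The remaining 6 expressed genes of the window had SDs of 0.26 to 0.49 and ranged over 2.31-fold to 11.2-fold, so by fold range alone, without eye 27, the 2 groups of genes overlap. RefSeq lists 6 globin symbols here on GRCr8, Hbq1, Hba-a3, Hba-a2, Hbq1b, Hba-a1 and Hbz, and the 2 variable genes are called by their identifiers since the files do not pair them with any. By fragments, Hba-a3 had 295 counts against 64660 for the 2 variable genes together, which is 0.454% of their joint total. Below, α counts and the α sum are those of the 2 variable genes, whose globin identity was not checked.

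Hbb was compared over the 51 eyes with the 2 variable genes near Hba-a3, whose reads map to a region of another chromosome. They are called α-cluster genes by position, since no globin symbol could be paired with them. Hbb and ENSRNOG00000029886 had a Pearson's r of 0.87 and a Spearman's rho of 0.84, and Hbb and ENSRNOG00000047321 an r of 0.84 and a rho of 0.79. Each had a two-sided permutation p of 1e-05, the smallest that 100000 permutations can give. After Benjamini-Hochberg adjustment over the 21 relations computed in this family, each permutation p was 1.91e-05. Apart from the members, genes entered this family by a low limma p with Hbb in the same 51 eyes. The 6 other expressed genes near Hba-a3 did not enter. The permutation p-values and the sums below follow that selection and are no independent test of it. Without eyes 27 and 45, the 2 farthest from the median of Hbb, r was 0.84 with ENSRNOG00000029886 and 0.79 with ENSRNOG00000047321. In the 12 eyes with a less common prefix r was 0.80 and 0.74, and in the 39 with the most common prefix 0.89 and 0.87. In the 40 eyes with a kept label it was 0.86 and 0.81. The eye highest in Hbb, eye 27, was also highest in both α-cluster genes, at 229 and 112 CPM.

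Within chromosome 1 the relations of Hbb were weaker. With ENSRNOG00000047098 r was 0.74 and rho 0.64 (permutation p = 1e-05), and without eyes 27 and 45 r was 0.67. With ENSRNOG00000061299 r was 0.52 and rho 0.49 (permutation p = 9e-05 for r, adjusted 0.000158), and without those eyes r was 0.44. Here the batches differed: r was 0.19 in the 12 eyes with a less common prefix and 0.63 in the 39 with the most common prefix, and this difference was not tested. ENSRNOG00000061299 had a higher r with the 2 α-cluster genes, 0.72 and 0.73, than with Hbb, its neighbour. As a yardstick, the 2 α-cluster genes had an r of 0.95 with each other, though part of their counts was also split by estimate. The chromosome 1 genes summed against the 2 α-cluster genes summed gave an r of 0.92 and a rho of 0.91 (permutation p = 1e-05), above the r of 0.87 for Hbb alone with the α sum.

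Hbb and Hba-a3 were related less closely. Over 51 eyes r was 0.43 (permutation p = 0.00174, adjusted 0.00261) and rho 0.34 (permutation p = 0.0163, adjusted 0.0228). Without eyes 27 and 45 r was 0.30 (permutation p = 0.0393) and rho 0.27 (permutation p = 0.0604). In the 12 eyes with a less common prefix r was 0.74, and in the 39 with the most common prefix 0.33 (permutation p = 0.0449). In those 39 eyes rho was 0.22 (permutation p = 0.179). Without the 11 eyes of corrected label r was 0.21 and no longer past the threshold (permutation p = 0.196, n = 40). Eyes 27 and 44, both of corrected label, had the 2 highest values of both genes. The counts of 0 in 19 eyes limit how precise any value of Hba-a3 is. With the genes of its own cluster the values were similar: r was 0.44 with ENSRNOG00000047321 (rho 0.45) and 0.41 with ENSRNOG00000029886 (rho 0.36), with adjusted permutation p of 0.00179 and 0.00386, and without the pair of eyes most distant from the medians of those genes r was 0.30 and 0.27. With the unnamed chromosome 1 genes r was 0.26 and 0.20, and neither passed the adjusted threshold.

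**Figure D2:**
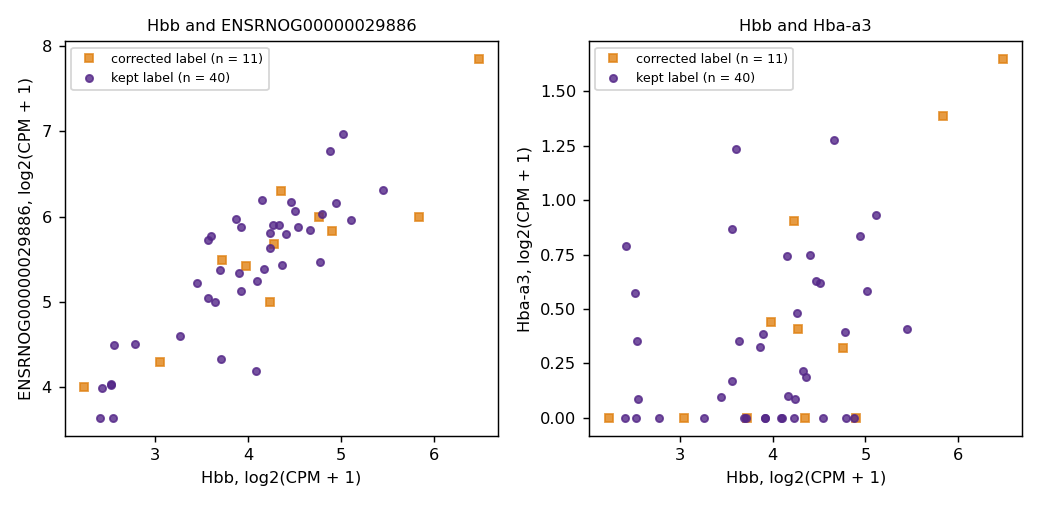
Each point is 1 of 51 eyes, with Hbb in log2(CPM + 1) on the horizontal axes and the α-cluster gene ENSRNOG00000029886 (left) or Hba-a3 (right) in log2(CPM + 1) on the vertical axes; orange squares are the 11 eyes of corrected label and purple circles the 40 of kept label. Points on the left follow a line (r = 0.87), and those on the right scatter widely (r = 0.43), with 19 eyes at 0.

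The counts of each cluster were also divided between their genes, a measure in which the library total cancels. Hbb held 52.1 ± 12.4% (SD, n = 51) of the counts of the 3 expressed chromosome 1 genes, from 33.1% in eye 47 to 87.0% in eye 44, with quartiles at 41.7% and 61.7%. For eye 47 the exact (Clopper-Pearson) 95% interval was 29.02 to 37.6%, from 161 of 485 counts, and for eye 44 it was 84.9 to 89.0%, from 901 of 1035. Eye 36 had the second highest share, 79.1% (interval 74.4 to 83.3%). The ends of the range therefore differed by more than counting error, though the intervals do not cover the error of assigning shared reads. Hbb was the gene with the most counts of the 3 in 33 of the 51 eyes.

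ENSRNOG00000061299 took the rest in the main, with a median of 39.1% and a range of 5.46 to 63.2%, while ENSRNOG00000047098 had 9.61% and a range of 3.08 to 16.9%. In eye 44, where Hbb was second highest of all eyes, ENSRNOG00000061299 had 3.51 CPM, near its lowest. The split on chromosome 10 was steadier: ENSRNOG00000047321 held between 24.1 and 43.2% of the counts of the 2 variable genes, with a median of 31.8%. This split is partly an estimate as well. Of the values below 1000 counts, 12 of 49 for ENSRNOG00000047321 and 7 of 37 for ENSRNOG00000029886 were not whole. The ratio of summed chromosome 1 counts to summed α counts had a median of 0.484 and ran between 0.278 and 0.810, a 2.91-fold range. The 2 sums themselves ranged over 16.1-fold and 19.8-fold, or 8.30-fold and 9.76-fold without eye 27. In all 51 eyes the α sum was the larger of the 2 by fragments.

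The Hbb share had a low positive r with both sums, and only the r with the chromosome 1 sum passed the threshold. Its r with the α sum was 0.25 and its rho 0.22 (permutation p = 0.0716 and 0.114, adjusted 0.0835 and 0.133), and without eyes 44 and 36 r was 0.28. With the chromosome 1 sum, of which Hbb is a part, r was 0.30 (adjusted permutation p = 0.0411) and rho 0.24 (adjusted 0.103). Between the Hbb share and the Hba-a3 share r was 0.03 (permutation p = 0.857).

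The share of Hba-a3 differed between eyes as well. It was largest in eye 31, with 14 of 421 counts of the 3 chromosome 10 genes, 3.33% (exact interval 1.83 to 5.52%), although eye 31 was among the 3 lowest in Hbb. Eye 29, with 9 of 419 counts, had 2.15% (interval 0.987 to 4.04%). Eye 27, with the most Hba-a3 counts, had 34 of 5471, or 0.621% (interval 0.431 to 0.867%). Eye 28 had 0 Hba-a3 counts beside 3124 α counts, 0% with an exact interval of 0 to 0.118%. The exact intervals of eyes 31 and 28 do not overlap. The 32 eyes with a count had a median of 1279 α counts (366 to 5437) and the 19 at 0 a median of 858 (256 to 3124), so their ranges overlap, and the share had an r of -0.11 and a rho of 0.20 with the α sum (permutation p = 0.438 and 0.160). The sign of that r was not stable: it was 0.17 without eyes 31 and 29 and 0.04 without eye 31 alone.

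**Figure D3:**
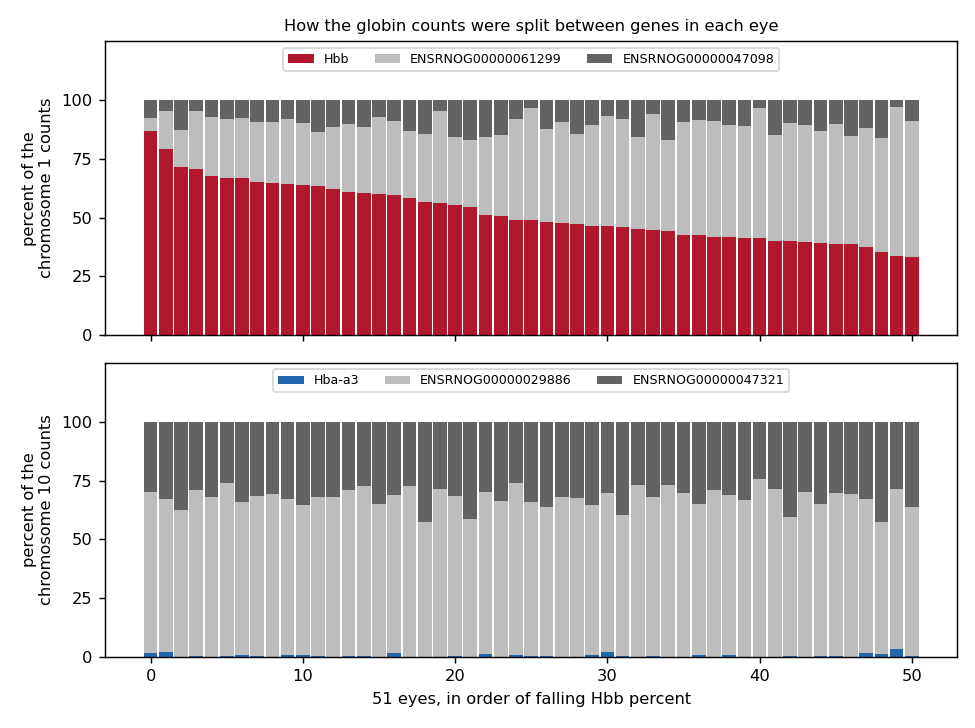
Stacked bars give the percent of counts that each gene held, 1 bar per eye for 51 eyes in order of falling Hbb percent, for the 3 expressed chromosome 1 genes (top) and 3 chromosome 10 genes (bottom). Hbb (red) runs between 33.1 and 87.0%, while Hba-a3 (blue) is at most 3.33%.

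All genes whose median reached 1 CPM were then fitted on Hbb with limma, with Benjamini-Hochberg adjustment, to see which genes elsewhere in the genome rise and fall with it. Of 13843 genes 3 passed an adjusted p of 0.05, a share of 0.0217%, and all 3 were genes of the globin windows that rose with Hbb. ENSRNOG00000029886 rose by 0.84 ± 0.07 (SE) on the log2 scale per log2 unit of Hbb (adjusted p = 1.23e-13), ENSRNOG00000047321 by 0.78 ± 0.07 (adjusted p = 1.41e-11) and ENSRNOG00000047098 by 0.53 ± 0.07 (adjusted p = 1.66e-06). ENSRNOG00000061299 had a slope of 0.46 ± 0.10 (SE) and missed the threshold over all genes (limma adjusted p = 0.117). A further 635 genes had an unadjusted p under 0.05, 638 in all or 4.61%. The 6 other expressed genes near Hba-a3 had r between -0.06 and 0.11 with Hbb.

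The relation of the 2 α-cluster genes to Hbb was outside the range of genes elsewhere. Over the 13833 tested genes outside the windows r with Hbb ran between -0.49 and 0.55, with a median of -0.01, and 0 of them reached the 0.84 of ENSRNOG00000047321. Of the 10 genes with the highest r, 4 lay in the globin windows: ENSRNOG00000029886, ENSRNOG00000047321, ENSRNOG00000047098 and ENSRNOG00000061299. The highest outside the windows was ENSRNOG00000010302 on chromosome 10 at position 70627401, far from the α cluster, with an r of 0.55, a rho of 0.54 and a slope of 0.38 ± 0.08 (SE, limma adjusted p = 0.0611). When ENSRNOG00000029886 took the place of Hbb as the predictor, a choice made after seeing the data, this gene passed (limma adjusted p = 0.0189). It was 1 of 5 genes called (0.0361%), the 4 others being of the globin windows. With ENSRNOG00000047321 as the predictor it did not pass. There the only call outside the windows was another gene, on chromosome 11 (limma adjusted p = 0.0221). Lowest were Dusp12, a dual-specificity phosphatase gene, with an r of -0.49 (rho -0.40, limma adjusted p = 0.708), and, among the other 9, Asrgl1, an asparaginase gene, with an r of -0.47 (rho -0.47, limma adjusted p = 0.708). None of the 10 lowest passed the threshold, and 2 of them could be named.

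For Hba-a3 the same fit gave 0 of 13844 genes (0%) at an adjusted p of 0.05 in limma, with 1121 at an unadjusted p under 0.05 (8.1%) and a smallest adjusted p of 0.573. Hbb itself, with an r of 0.43, was not among the 10 genes with the highest r: 16 of 13833 genes outside the windows had an r with Hba-a3 at least as high. The highest was ENSRNOG00000005303 on chromosome X, at position 15064594, with an r of 0.52 and a rho of 0.45, and the lowest ENSRNOG00000018162 on chromosome 9, at position 82327534, with an r of -0.51 and a rho of -0.52. The 10 highest ran between 0.45 and 0.52, the 10 lowest between -0.51 and -0.43, and none lay in a globin window. Over genes outside the windows the median r with Hba-a3 was 0.05.

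**Figure D4:**
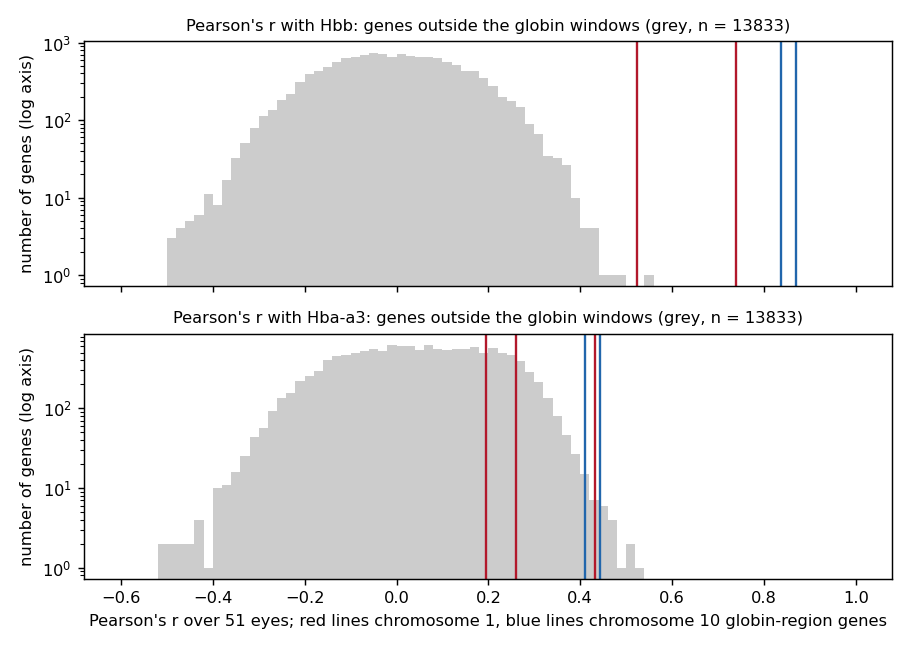
Histograms of Pearson's r over 51 eyes between each of 13833 genes outside the globin windows and Hbb (top) or Hba-a3 (bottom), with the number of genes on a log axis. Red (chromosome 1) and blue (chromosome 10) lines mark the 4 window genes picked by a low limma p with Hbb, and Hbb itself in the bottom panel. The 6 other expressed genes near Hba-a3 are not drawn. With Hbb, 3 lines stand right of all other genes and the line at 0.52 lies within their range, which ends at 0.55; with Hba-a3 all lines lie within the range of other genes, which ends at 0.52.

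The share of Hbb among the chromosome 1 counts, fitted in the same way on its log odds as a choice made after seeing the data, gave 0 of 13841 genes in limma (0%), 1864 at an unadjusted p under 0.05 (13.5%), and a smallest adjusted p of 0.055.

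Genes of blood cells, vessels and eye tissues were set beside the members, from lists of 104 genes of which 37 could be named in the files and 34 passed the level minimum. None of the 34 was called with Hbb or with Hba-a3 (background 0.0217% and 0%), and 1 had an unadjusted p under 0.05 with Hbb, a share no higher than the 4.61% over all genes. That 1 was Cavin1, a gene of caveolae in vessel and other cells, with a median of 68.9 CPM, an r of 0.31 and a rho of 0.29 with Hbb (limma p = 0.0271, adjusted 0.939). The lists' median r with Hbb is to be read beside the median of -0.01 over all genes tested.

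Of the list of red cell and haem genes only 1 of 14 could be named, Slc11a2, an iron transporter with a median of 78.3 CPM and an r of 0.01 with Hbb, so the members could not be set against other red cell genes. Of the other globins 1 of 13 could be named: Cygb, cytoglobin, which is made in fibroblast-like cells, had 92.0 CPM in the lowest eye, a median of 127 and 206 in the highest. Its r with Hbb was 0.25 (rho 0.29, limma adjusted p = 0.939). The 3 platelet genes tested, Itga2b, Itga2 and Tspan9, had a median r of 0.00 with Hbb. Itga2b, the platelet integrin chain, was low, with a median of 1.87 CPM and between 0.264 and 4.59 CPM, and its r with Hbb was -0.19.

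The 6 myeloid genes tested had a median r of 0.12, between -0.21 and 0.17. Cd68, a macrophage lysosome gene, had a median of 2.24 CPM and an r of 0.15, and Lcn2, a neutrophil gene that epithelia also make, had a median of 12.5 CPM and an r of -0.21. The 2 lymphocyte-list genes tested, Ttc24 and Bst1, had r of 0.21 and 0.13 with Hbb, and Sla2, an adaptor of T cells, was at 0 in 33 eyes. The 4 vessel genes had a median r of 0.12, among them Adgrf5, an endothelial receptor, at 0.21 and Angpt2, an endothelial ligand, at 0.03. The 3 genes induced by low oxygen that were tested had a median r of -0.03: Ndrg1 had -0.19, Pygl -0.03 and Ddit4 0.00. The 6 retinal genes had a median of 0.00, the 3 pigment genes -0.10, the 2 connective tissue genes -0.06 and the 3 epithelial genes 0.04. For comparison, the quartiles of r with Hbb over genes outside the windows were -0.11 and 0.10.

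With Hba-a3 the list medians ran from -0.18 for the genes induced by low oxygen to 0.18 for Slc11a2, beside a median of 0.05 over all genes tested. Lcn2 was farthest from 0 among the 34, with an r of -0.33 and a rho of -0.33 (limma p = 0.0128, adjusted 0.573).

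**Figure D5:**
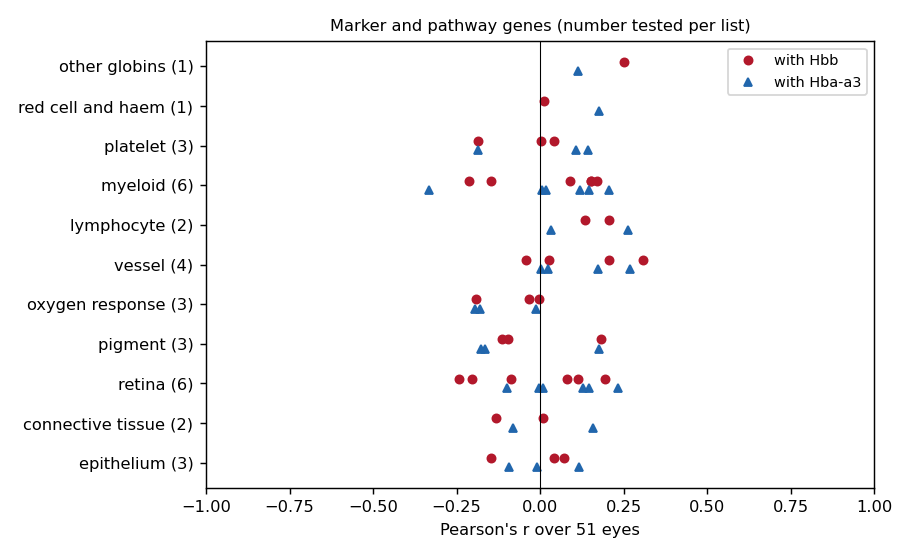
Pearson's r over 51 eyes between each list gene that passed the level minimum and Hbb (red circles) or Hba-a3 (blue triangles), 1 row per list with the number of genes tested. The values with Hbb lie between -0.24 and 0.31, and none of the 34 genes was called.

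Neither gene differed by batch beyond the spread of the eyes. Between prefixes Hbb had 4.07 ± 0.94 on the log2(CPM + 1) scale in the 12 eyes with a less common prefix and 4.01 ± 0.91 (SD) in the 39 with the most common one, a difference of 0.06 ± 0.29 (SE, limma adjusted p = 0.951). Hba-a3 had 0.41 ± 0.47 in eyes with a less common prefix and 0.35 ± 0.42 (SD) in eyes with the most common one, a difference of 0.05 ± 0.15 (SE, limma adjusted p = 0.906). In that comparison 35 of 13845 genes were called, or 0.253%, with 2298 at an unadjusted p under 0.05. The count of 35 fell to 6 with median-of-ratios scaling, 11 with no filter, 6 without the 3 eyes of largest total and 1 on values not divided by the total, while neither member was called in any of these.

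Between label groups Hbb had 4.35 ± 1.18 in the 11 eyes of corrected label and 3.93 ± 0.81 (SD) in the 40 of kept label, a difference of 0.41 ± 0.29 (SE, limma adjusted p = 0.857). The eyes of corrected label ran between 3.71 and 88.1 CPM with a median of 18.4, and those of kept label between 4.31 and 42.6 CPM with a median of 16.05, so the ranges overlap. Hba-a3 had 0.46 ± 0.60 in eyes of corrected label and 0.34 ± 0.37 (SD) in eyes of kept label, a difference of 0.13 ± 0.15 (SE, limma adjusted p = 0.914). In limma 0 of 13845 genes (0%) were called in that comparison, and 795 had an unadjusted p under 0.05.

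Properties of the libraries were compared with both genes in 8 relations. The total count, the number of genes above 0, the percent of counts on chromosome MT, which ran between 0.418 and 8.91%, and the percent in the 100 highest genes, between 22.5 and 38.7%, were used. With Hbb r was 0.09, -0.16, -0.06 and -0.05 in that order, and rho 0.04, -0.10, -0.01 and 0.00. None passed, with adjusted permutation p of at least 0.757 for r and of 0.989 for each rho. Without the 2 eyes farthest in each property r was 0.08, -0.11, 0.04 and 0.00. In the 12 eyes with a less common prefix r was -0.26, -0.04, 0.24 and -0.29, and in the 39 with the most common prefix 0.15, -0.19, -0.11 and 0.07.

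With Hba-a3 r was -0.08, 0.15, -0.02 and -0.24 in the same order of properties, and rho -0.09, 0.28, 0.01 and -0.21. The rho of 0.28 with the number of genes above 0 had a permutation p of 0.0474 and an adjusted p of 0.379, and the smallest adjusted permutation p for r was 0.685. Without the 2 eyes farthest in each property r was -0.07, 0.16, -0.01 and -0.23. In the 12 eyes with a less common prefix r was -0.54, 0.16, 0.05 and -0.49, and in the 39 with the most common prefix 0.01, 0.16, -0.02 and -0.13.

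The members and the variable genes of their windows were a small part of these libraries. Hbb, Hba-a3 and the 4 variable genes of the windows together held between 0.00258 and 0.0480% of counts, with a median of 0.0108%. Of the variance of Hbb the first 5 principal components of expression held 6.86% and the first 20 held 49.4%, and of that of Hba-a3 they held 10.3% and 56.6%. These shares used inverse normal values, with the members among the genes that formed the components. No share was computed for other genes, so they do not show whether the members stand out.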

How the data were processed

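Eye RNA was sequenced as polyA-selected, paired-end libraries. Per the paper and the labels, the authors aligned reads to Rnor_6.0 with STAR, estimated expression with RSEM and matched samples to DNA genotypes with GATK ASEReadCounter, with no versions or annotation stated. The deposited table holds log2(expected count + 1); this scale was inferred, since after back-transformation 89.8% of low values were whole within 0.01. Library totals, 9109084 to 42146827, set the precision of low genes. Counts were scaled to 1000000 per eye and taken as log2(CPM + 1); with values deposited on a log scale, limma was used. Genes were named by position from the study's supplementary list of cis-eQTL genes (379 of 778 entries matched) or within 500 bp of a listed start, so named genes are mostly of that list. Promoters came from RefSeq (GRCr8), and all 4 matched by symbol.

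Fits used limma 3.58.1 (R 4.3.3) with a variance trend, a median of at least 1 CPM and a Benjamini-Hochberg threshold of 0.05. Hba-a3, below that minimum, was added by name. Correlations used 100000 two-sided permutations. Other steps used matplotlib 3.10.9, pandas 2.3.3, scipy 1.17.1 and numpy 2.4.6 in Python 3.11.15. Scripts were tested on simulated data. Named genes were the 2 members, the genes within 100 kb, the 10 highest and 10 lowest r and list genes; of unnamed identifiers outside the windows 2 with positive and 1 with negative r are printed. Single eyes were picked after their values were seen. The members and lists were chosen with earlier results of these data known. Alternatives were scaling, pseudocount, transform, filter, components, batches and eyes left out.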

Additional observations from a re-analysis of the deposited data

How the results depend on the processing

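The r of Hbb with Hba-a3 was 0.43, and under 15 alternatives it ran from 0.21 to 0.74. By r it missed the threshold in 1 of them, at 0.21 without the eyes of corrected label. There rho missed it too (0.25, permutation p = 0.126). By rho it was also missed in the 39 eyes with the most common prefix (0.22, permutation p = 0.179). The same held without eyes 27 and 45 (rho 0.27, permutation p = 0.0604). The count of genes called with Hbb, 3 in the values as reported, was 6107 when values were not divided by the library total, 9 with 5 components removed (4 of them in the globin windows) and 0 in the 12 eyes with a less common prefix, where limma gave an unadjusted p under 0.05 to 939 genes and ENSRNOG00000029886 still had a slope of 0.72 ± 0.15 (SE). In the other 15 alternatives it was 2 to 4. Without eyes 27 and 45, and also without eye 27 alone, it was 4, of which 3 lay in the globin windows. In the rest of the 15 every gene called lay in those windows. The inverse normal values were fitted without a variance trend. ENSRNOG00000061299 passed with Hbb in 4 of 18 alternatives, among them the 39 eyes with the most common prefix (adjusted p = 0.0190), the 40 eyes of kept label (adjusted p = 0.0373) and 5 components removed (adjusted p = 0.0179). With Hba-a3, 0 genes were called in all 18 alternatives, the smallest adjusted p being 0.0799 with no filter. Other globin-window genes took the place of Hbb as predictors, a choice made after seeing the data. Of 13843 genes ENSRNOG00000047098 called 4 (0.0289%) and ENSRNOG00000061299 called 3 (0.0217%). ENSRNOG00000047321 and ENSRNOG00000029886 called 5 each (0.0361%). In that order, 403, 884, 2031 and 1637 genes had an unadjusted limma p under 0.05, against 638 with Hbb. The Hbb share called 0 genes in its 4 alternatives. The differences of both genes by prefix and label kept their direction and side of the threshold in every alternative run. No relation to library properties passed the threshold in any alternative, and some r and rho near 0 changed sign, such as the r of Hbb with the percent in the 100 highest genes, -0.05 as reported and 0.03 with median-of-ratios scaling. Causes of these changes were not tested, except that undivided values carry the depth of each library. No paired analysis was possible because the eyes form 1 group and their numbers follow only the order of accession. The low counts of Hba-a3, 0 in 19 eyes, limit its precision. Shared reads limit that of the split of the chromosome 1 counts and, in fewer eyes, of the counts of the 2 variable chromosome 10 genes.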
